A study of Arabidopsis thaliana with 6 samples.

Results

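The genes described here are 6 genes of cell proliferation in Arabidopsis thaliana, out of 13355 genes that had a probe set of their own in the annotation used. They are PRL, which encodes the MCM7 subunit of the replicative helicase, ICU2, which encodes the catalytic subunit of DNA polymerase alpha, the mitotic kinase genes AUR1 and AUR2, and the histone H2B genes AT2G37470 and AT3G53650. They were picked by name, each through a probe set whose annotation lists exactly 1 gene and, where a gene had several, through the brightest. A probe set is a group of short probes read together for a transcript, and each of the 6 genes had 1.

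The overexpressing plants were 35S::KLU seedlings, in which the viral 35S promoter, active in most plant tissues, drives the KLU gene, and they were set against wild-type (WT) seedlings. Both were of the Col-0 ecotype and untreated, and shoots were taken at growth stage 1.03 from plants kept on MS medium at 21 °C, in days of 16 h light and nights of 8 h. Each genotype had 3 samples, each a pool of 5 seedlings and hybridised to 1 Affymetrix ATH1 array, from 3 independent experiments in which the genotypes shared plates, per the series' design text. How many transgenic lines the 35S::KLU samples stand for is not given in the sources used here. KLU encodes a cytochrome P450, CYP78A5, that promotes organ growth, and the comparison asks whether proliferation genes differ in whole shoots when it is overexpressed.

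Cells copy their DNA in S phase and separate the copies in mitosis, and many genes of both steps are transcribed mainly in dividing cells. MCM proteins unwind the DNA at replication forks, DNA polymerase alpha lays down the primers, and core histones made in S phase package the new DNA. Aurora kinases then act on the spindle and at the division plane. In a young shoot such cells sit in the meristem and at the bases of growing leaves, so a whole shoot mixes them with many cells that no longer divide. In such bulk RNA, fewer dividing cells and less RNA per dividing cell cannot be told apart.

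The arrays carried RMA values, which are on a log2 scale, so that a difference of 1 is a doubling of signal. Array medians lay between 6.01 and 6.05 and lower quartiles between 4.06 and 4.11, and all 6 genes had means above 5. Values are not compared between genes, because probe sets differ in brightness for the same amount of RNA. Of the 22746 probe sets tested with limma, 8.32% passed an adjusted p of 0.05, with 4.27% lower and 4.05% higher in 35S::KLU. Among the 13959 probe sets with a mean of at least 5, a cut chosen after the data were seen, 6.4% were lower and 6.14% higher. The level of KLU was not analysed here, since no single-gene probe set was paired with it.

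Of the 6 genes, 3 fell in 35S::KLU shoots (PRL, AT2G37470 and AT3G53650), 0 rose and 3 did not pass (ICU2, AUR1 and AUR2). In the same 3 that fell, the lowest WT array lay above the highest 35S::KLU array, a pattern that 14.9% of all probe sets and 19.2% of those with a mean of at least 5 showed. The falls were small, between 1.26-fold and 1.40-fold. In a fit that also took up the replicate number (the replicate block), PRL and AT3G53650 did not pass (limma adjusted p = 0.092 and 0.063). Because the genes were chosen with results of these data known, the count of 3 in 6 is a description and is not set against the share of all probe sets.

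**Figure D1:**
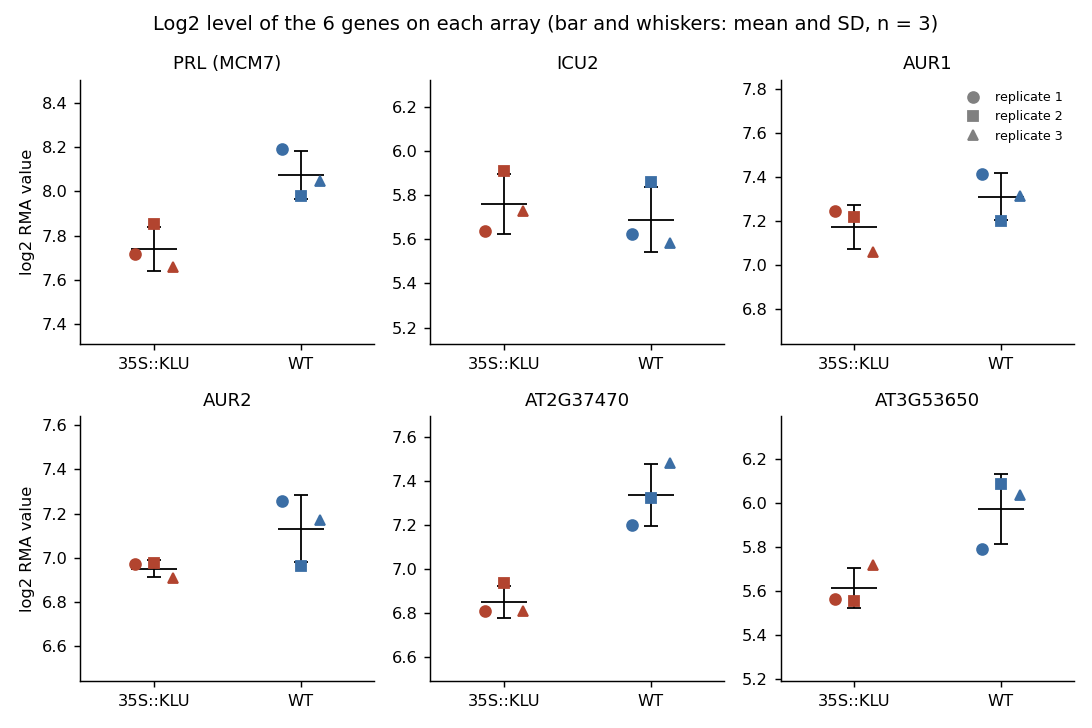
Log2 RMA value (y axis) of PRL, ICU2, AUR1, AUR2, AT2G37470 and AT3G53650 on each of the 3 35S::KLU and 3 WT arrays (x axis), with symbols for the replicate number and bars for the mean and SD. All panels span the same range of log2 units. The genotypes are apart for PRL, AT2G37470 and AT3G53650 and overlap for the other 3 genes.

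Among the replication genes, PRL had log2 values of 7.71, 7.85 and 7.66 in 35S::KLU shoots, against 8.19, 7.98 and 8.05 in WT shoots. All 35S::KLU arrays were below all WT arrays, by a gap of 0.13 between the nearest pair. PRL averaged 7.74 ± 0.10 in 35S::KLU and 8.07 ± 0.11 in WT (SD, n = 3 each), a log2 difference of -0.33 (95% confidence interval -0.52 to -0.14), which is 1.26-fold lower. The limma adjusted p was 0.041, close to the threshold, and it was above 0.05 on leaving out any single array except 35S::KLU replicate 2 (adjusted p between 0.074 and 0.14, against 0.047 without that array).

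ICU2 had log2 values of 5.64, 5.91 and 5.73 in 35S::KLU shoots, against 5.62, 5.86 and 5.58 in WT shoots. The genotypes overlapped over most of their range. The log2 difference was 0.07 (95% confidence interval -0.15 to 0.29, limma adjusted p = 0.75), so the interval held ratios of 35S::KLU to WT between 0.901 and 1.23. It excluded a fall as large as the one estimated for PRL, although the difference between PRL and ICU2 was not itself tested.

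The other replication genes came from a list of 52 genes for helicase subunits, origin proteins, polymerases, clamp loaders, nucleotide synthesis and chromatin assembly, of which 8 had a single-gene probe set, PRL and ICU2 included. PRL was the 1 that fell, 0 rose and 7 did not pass. Of all probe sets 4.27% passed as lower and 4.05% as higher, but PRL was chosen with results of these data known. The median log2 difference over the 8 was -0.02, the same to 2 decimals as over all 13355 genes. Of the 8, 6 had a difference below 0, against 55.5% of all genes. TOPII, the gene of topoisomerase II, which untangles DNA, came nearest to the threshold among those that did not pass.

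TOPII had log2 values of 6.97, 6.98 and 6.85 in 35S::KLU shoots and 7.30, 7.12 and 7.24 in WT shoots, with no overlap. Its log2 difference was -0.29 (95% confidence interval -0.46 to -0.11, limma adjusted p = 0.053). It passed under 3 of 15 alternatives, which were median-centring, a repeated quantile normalization and leaving out dim probe sets (limma adjusted p between 0.043 and 0.048), and it did not pass under the other 12 (limma adjusted p between 0.0505 and 0.181). POLD3, a subunit of DNA polymerase delta, differed by -0.19 (95% confidence interval -0.39 to 0.02, limma adjusted p = 0.27). POLA3, which the gene table also lists as the primase subunit gene POLA4, differed by -0.0047 (95% confidence interval -0.17 to 0.16), and PSF2, of the GINS complex that travels with the MCM helicase, by -0.03 (95% confidence interval -0.19 to 0.12). The intervals of POLA3 and PSF2 did not reach the estimate for PRL, while those of TOPII and POLD3 did. The interval of PRL overlapped those of POLA3 and PSF2, and no difference between these genes was tested. AT5G26680, which the gene table leaves without a name, differed by 0.06 (limma adjusted p = 0.71).

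**Figure D2:**
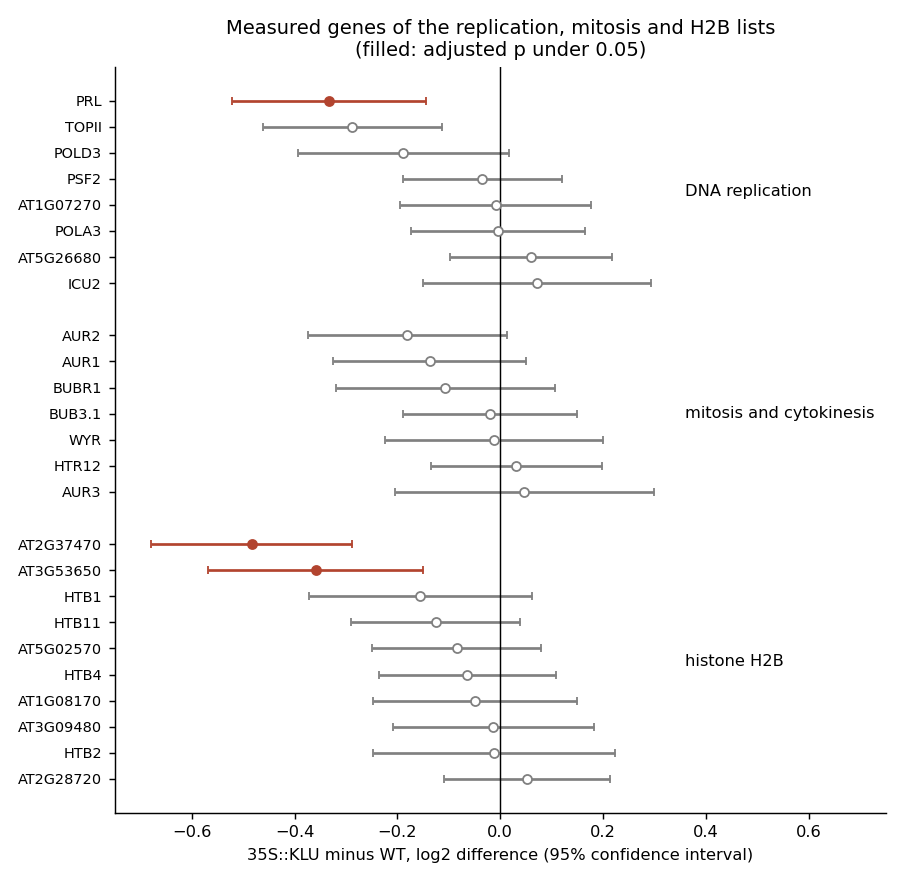
Log2 difference, 35S::KLU minus WT, with its 95% confidence interval (x axis) for every gene with a single-gene probe set in the lists of DNA replication, mitosis and cytokinesis, and histone H2B (y axis). Filled points passed an adjusted p of 0.05, and they are PRL at -0.33, AT2G37470 at -0.48 and AT3G53650 at -0.36.

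Among the mitotic genes, AUR1 had log2 values of 7.24, 7.22 and 7.06 in 35S::KLU shoots, against 7.41, 7.20 and 7.31 in WT shoots. WT replicate 2 lay within the range of the 35S::KLU arrays, and the other two WT arrays lay above it. The log2 difference of AUR1 was -0.14 (95% confidence interval -0.33 to 0.05, limma adjusted p = 0.40).

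AUR2, the paralog of AUR1, had log2 values of 6.97, 6.98 and 6.91 in 35S::KLU shoots, against 7.26, 6.96 and 7.17 in WT shoots. Again WT replicate 2 lay inside the 35S::KLU range and the other two WT arrays above it. AUR2 averaged 6.95 ± 0.04 in 35S::KLU and 7.13 ± 0.15 in WT (SD, n = 3 each), a log2 difference of -0.18 (95% confidence interval -0.37 to 0.01, limma adjusted p = 0.27). Without WT replicate 2 the log2 difference of AUR2 was -0.26 (adjusted p = 0.14) and that of AUR1 -0.19 (adjusted p = 0.35), so neither gene passed without that array.

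Of 49 genes in a list for mitosis and cytokinesis, 7 had a single-gene probe set, AUR1 and AUR2 included. By limma 0 of the 7 passed, and 0 had an unadjusted p under 0.05, against 8.32% and 21.7% of all probe sets. The median log2 difference was -0.02, and 5 of the 7 had a difference below 0, against 55.5% of all genes. AUR3, the third Aurora kinase gene, which is found at chromosomes, had 5.52, 5.29 and 5.09 in 35S::KLU shoots and 5.21, 5.40 and 5.15 in WT shoots, a log2 difference of 0.05 (95% confidence interval -0.21 to 0.30). BUBR1 and BUB3.1, of the spindle checkpoint, differed by -0.11 and -0.02, HTR12, the centromeric histone H3, by 0.03, and WYR by -0.01. WYR was dim, with all values below 5. The genes for B-type cyclins and for B-type cyclin-dependent kinases, the usual readouts of mitosis, had no single-gene probe set in the annotation used. They were not analysed here.

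The first of the histone H2B genes, AT2G37470, had log2 values of 6.81, 6.94 and 6.81 in 35S::KLU shoots, against 7.20, 7.32 and 7.48 in WT shoots. The nearest arrays of the 2 genotypes were 0.26 apart, the widest gap among the 6 genes. AT2G37470 averaged 6.85 ± 0.07 in 35S::KLU and 7.33 ± 0.14 in WT (SD, n = 3 each), a log2 difference of -0.48 (95% confidence interval -0.68 to -0.29, limma adjusted p = 0.0088). That is 1.40-fold lower, and 2.01% of all probe sets had a more negative difference. It passed on leaving out each array in turn, with adjusted p between 0.0065 and 0.042.

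AT3G53650 had log2 values of 5.56, 5.56 and 5.72 in 35S::KLU shoots, against 5.79, 6.09 and 6.04 in WT shoots. The genotypes did not overlap, but 35S::KLU replicate 3 and WT replicate 1 were 0.08 apart. The log2 difference was -0.36 (95% confidence interval -0.57 to -0.15), which is 1.28-fold lower, and the limma adjusted p was 0.045. The call held on leaving out WT replicate 1 (adjusted p = 0.013) and was lost on leaving out any other array (adjusted p between 0.059 and 0.18). The 3 other scalings of the arrays gave adjusted p between 0.059 and 0.068, so the call was lost under them too.

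The list of H2B genes held 11 loci, of which 10 had a single-gene probe set. Of the 10, the 2 already named fell, 0 rose and 8 did not pass. Of all probe sets 4.27% passed as lower and 4.05% as higher, but the 2 genes were chosen with results of these data known. The median log2 difference over the 10 was -0.07, against -0.02 over all genes. A difference below 0 was seen in 9 of the 10, the 2 chosen genes included, and in 55.5% of all genes. HTB1 had 8.48, 8.34 and 8.20 in 35S::KLU shoots and 8.36, 8.50 and 8.63 in WT shoots, a log2 difference of -0.16 (95% confidence interval -0.37 to 0.06). HTB11 had 9.28, 9.17 and 9.11 in 35S::KLU shoots and 9.29, 9.30 and 9.36 in WT shoots. The genotypes did not overlap, but their nearest arrays were only 0.0034 apart. Its log2 difference was -0.13 (95% confidence interval -0.29 to 0.04, limma adjusted p = 0.37). HTB4 and HTB2 differed by -0.06 and -0.01, with intervals that ended at -0.24 and -0.25 on the lower side. Apart from AT2G37470 and AT3G53650, the gene tables leave 4 measured loci of the list without a name. These (AT2G28720, AT3G09480, AT1G08170 and AT5G02570) differed by -0.08 to 0.05. Of these, AT1G08170 was dim, at 4.37 to 4.69, and RMA compresses differences between dim signals. The estimates for AT2G37470 and AT3G53650 thus lay outside the range of the other 8 (-0.16 to 0.05), and no test of that contrast was made. Both genes were chosen with results of these data known, so the choice itself favours such a contrast, which is given as a description only. H2B genes are close in sequence, and how far probes of one also bind the transcript of another was not tested. The annotation lists 1 gene for each of these probe sets.

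Of the other core histones, H2A genes had neither a single-gene probe set nor one that listed only core histone genes, and they were not analysed here. Genes of H3.1, H3.3 and H4 are represented by probe sets that list several genes each, so a value belongs to a class of near-identical genes and to no single one. By limma, 0 of the 13 probe sets that list several of these genes passed, against 8.32% of all probe sets. A count of 0 among 13 probe sets thus says little. The 5 for H3.1, the H3 form tied to replication, differed by -0.31 to -0.05, with a median of -0.07. The lowest of these had log2 values of 8.39, 8.34 and 8.18 in 35S::KLU shoots and 8.51, 8.52 and 8.82 in WT shoots, without overlap (limma adjusted p = 0.097). The other 4 probe sets, for which the annotation lists the same 5 genes, differed by at most 0.10 in size. They need not read the same transcript. The 5 for H4 differed by -0.16 to -0.03, and the 3 for H3.3, the form laid down outside replication as well, by -0.01 to 0.15.

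**Figure D3:**
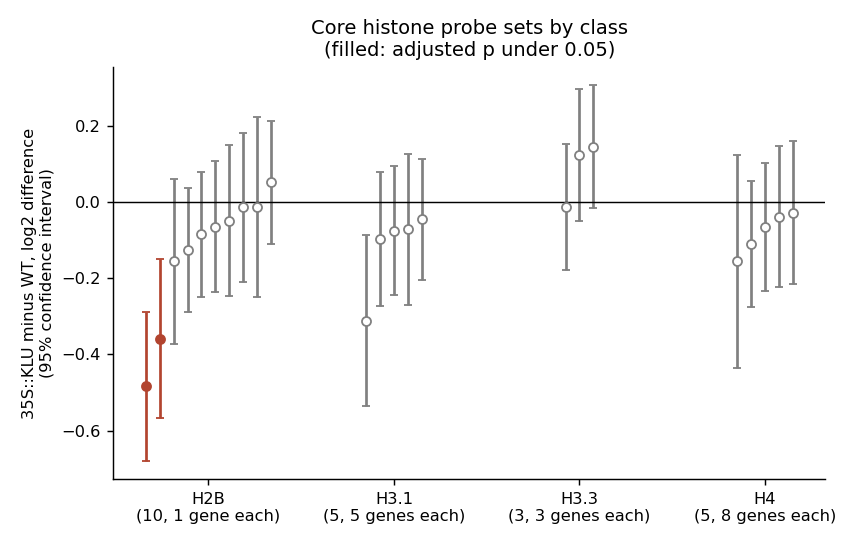
Log2 difference, 35S::KLU minus WT, with its 95% confidence interval (y axis) for 10 single-gene H2B probe sets and for the probe sets that list several H3.1, H3.3 or H4 genes (x axis, with the number of probe sets and of genes listed on each). The filled points are AT2G37470 and AT3G53650, and none of the 13 probe sets of the other classes passed an adjusted p of 0.05.

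More genes of the same processes were looked up once the annotation had been seen. Of 4 for replication and histone chaperones (TOP3A, ATIM, ASF1B and SGA2) 0 passed, with log2 differences between -0.22 and -0.03. Of 10 for mitosis and cytokinesis 0 passed, with differences between -0.29 and 0.12. Over all probe sets 8.32% passed, so counts of 0 in lists this short say little about these processes. In 4 of the 10 for mitosis and cytokinesis all 35S::KLU arrays lay below all WT arrays, as in 14.9% of all probe sets. The nearest to the threshold was CDC27a, a subunit of the anaphase-promoting complex, with 4.58, 4.48 and 4.40 in 35S::KLU shoots and 4.74, 4.65 and 4.92 in WT shoots (log2 difference -0.29, limma adjusted p = 0.083). CDC27a was dim, with all values below 5. KINESIN-12B, a motor of the phragmoplast that builds the new cell wall, differed by -0.21 (limma adjusted p = 0.27), and its genotypes did not overlap. HBT, the other CDC27 gene, differed by -0.06. Of 3 further histone genes, HON4 differed by -0.01 and MGH3, the H3 of male gametes, by -0.14, with all values of MGH3 below 5. HIS1-3, a linker histone gene known to respond to drought and not a gene of dividing cells, had 7.81, 8.02 and 8.20 in 35S::KLU shoots and 5.49, 5.51 and 5.68 in WT shoots, and it rose by 2.45 on the log2 scale (limma adjusted p = 4.2e-06).

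Of 32 genes that regulate entry into the cell cycle or endoreduplication, SIM was the single one with a probe set of its own in the annotation used. SIM encodes a cyclin-dependent kinase inhibitor that turns cells from mitosis to endoreduplication. It had log2 values of 5.73, 5.38 and 5.58 in 35S::KLU shoots and 5.66, 6.01 and 5.85 in WT shoots, overlapping, with a log2 difference of -0.27 (95% confidence interval -0.53 to -0.02, limma adjusted p = 0.19). Of 11 growth regulators, JAG, which promotes growth of lateral organs, was the single one measured, at 0.09 (limma adjusted p = 0.60) and at levels near the lower quartile.

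The 6 genes did not vary alike between arrays of a genotype. Among the WT arrays, replicate 1 was the highest for PRL, AUR1 and AUR2, at 0.12, 0.10 and 0.13 above their WT means. The same array was the lowest of the 3 for both H2B genes, at -0.13 for AT2G37470 and -0.18 for AT3G53650. WT replicate 2 was the lowest for PRL, AUR1 and AUR2 and the highest for ICU2 and AT3G53650. With WT replicate 1 left out, the difference of PRL was -0.27 and that of AT3G53650 was -0.45, beside -0.33 and -0.36 over all arrays.

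**Figure D4:**
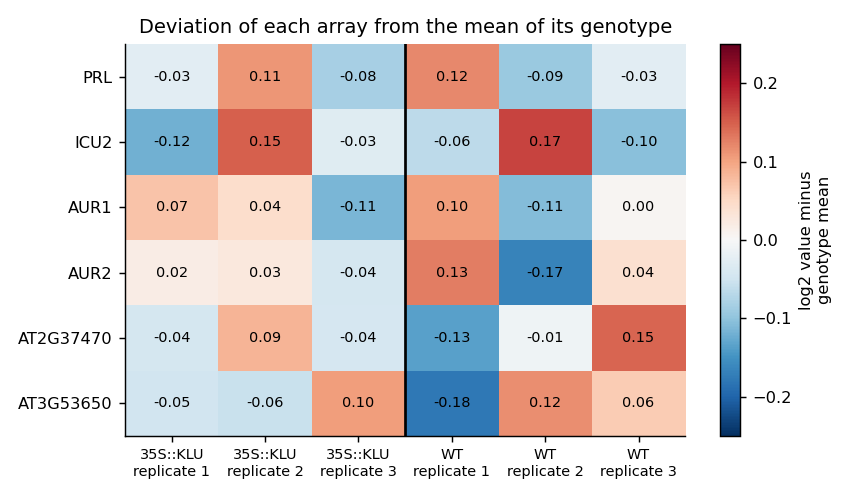
Deviation of each array (x axis) from the mean of its genotype, in log2 units, for the 6 genes (y axis), with colour and printed value giving the same number. WT replicate 1 is above the WT mean for PRL, AUR1 and AUR2 and below it for AT2G37470 and AT3G53650.

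The genes whose 6 values ran most like those of a member are given as a description, without a test. The points fall into the 2 genotypes, so a gene that differs between them ranks high for a member that does. For AT2G37470 they were AT2G10940 and AT1G09620, with Pearson correlations of 0.997 and 0.995 over 6 arrays, and these had log2 differences of -0.73 and -0.35. For PRL they were AT3G52500 (0.996) and AT4G02940 (0.995), with differences of -0.28 and -0.26. For AT3G53650 they were AT5G13560 (0.990) and AT1G24530 (0.989). The overlapping members had AT5G19500 (0.993) and AT3G04780 (0.989) for AUR1, AT4G04880 (0.982) and AT1G32530 (0.979) for AUR2, and AT1G60180 (0.978) and UGT73C1 (0.977) for ICU2. None of these 12 genes belongs to the lists above.

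The tissue label was set against marker genes. Of 9 markers of green shoots 3 were measured (LHCB4.1, LHCB4.2 and LHCB4.3, of the light-harvesting antenna), none of which passed, and the log2 of their summed signal was 14.6 to 14.7 on both 35S::KLU and WT arrays. Of 5 root markers 3 were measured, with a log2 summed signal of 10.6 to 10.9 on 35S::KLU arrays and 10.1 to 10.6 on WT arrays, set by PYK10, a beta-glucosidase of roots and hypocotyls. PYK10 did not overlap between genotypes and differed by 0.43 (limma adjusted p = 0.078), while the root hair expansin genes EXPA7 and EXPA18 did not pass and lay between 3.91 and 5.08 on all arrays. Of 6 markers of the shoot meristem, where many dividing cells lie, CLV3 was the single one measured, at 3.57 to 3.65 in 35S::KLU shoots and 3.38 to 3.60 in WT shoots, below the lower quartile of every array. The part of PYK10-expressing tissue and of the amount of meristem in the differences above was not tested.

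**Figure D5:**
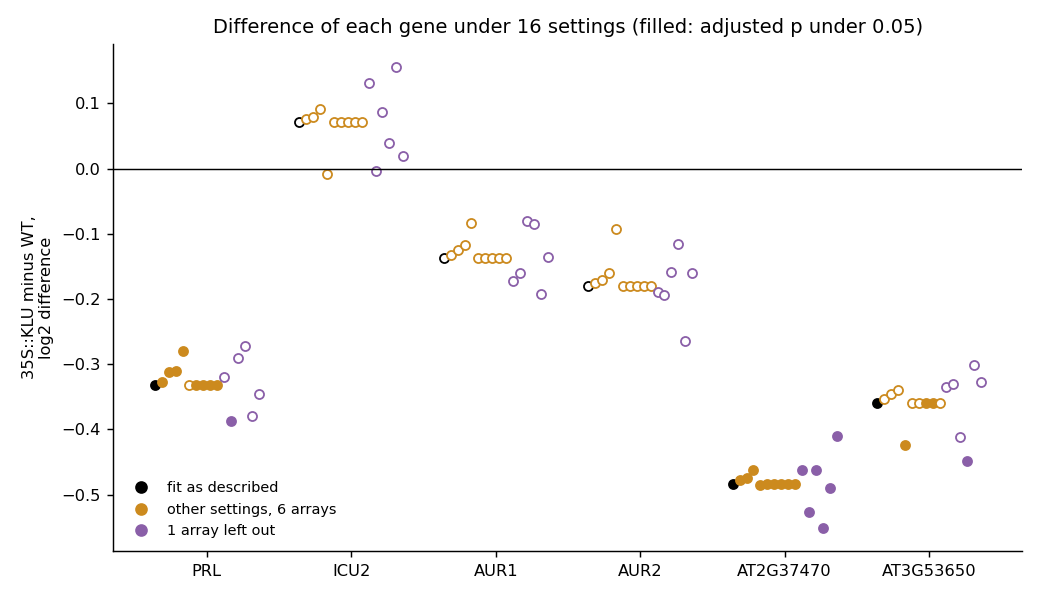
Log2 difference, 35S::KLU minus WT (y axis), of each of the 6 genes (x axis) in the fit described above (black), under 9 other settings over 6 arrays (orange) and with 1 array left out (purple), filled where the adjusted p was under 0.05. AT2G37470 is filled throughout, PRL and AT3G53650 in part, and ICU2, AUR1 and AUR2 under no setting.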

How the data were processed

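RNA from 3 35S::KLU and 3 WT samples was measured on single-colour Affymetrix ATH1 arrays. The deposited values are on the log2 scale, 1 for each probe set on each array, and per the submitters' processing notes these are RMA values (version not stated). RMA subtracts background, equalises the arrays' distributions by quantiles and fits 1 value per probe set, and it compresses small signals. The sources used here give no detection calls, and 3 arrays per genotype limit the precision.

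Of 22810 probe sets, 64 Affymetrix controls were left out. In the platform annotation 13513 of the rest list 1 gene, 503 several and 8730 none. A gene without a single-gene probe set here may thus still be represented on the array. Symbols follow the RefSeq table of TAIR10.1. No coordinates are given, since no build is named for the files, and sequences were not analysed here.

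Differences are 35S::KLU minus WT, fitted with limma 3.58.1 (lmFit, eBayes) in R 4.3.3 over all 22746 probe sets. Tests were two-sided, with Benjamini-Hochberg adjustment and a threshold of 0.05. On simulated data the fit recovered 4 of 50 changes of 0.3 log2 units, 19 of 50 of 0.5 and 49 of 50 of 1. The simulation held far fewer changed probe sets (50 at each size) than the 1893 that passed in the data. Its Benjamini-Hochberg cutoff was thus stricter, and these rates may understate recovery in the real comparison. Changes as small as the falls given above may still be missed, and a gene that did not pass is not shown to be unchanged. Python 3.11.15 with pandas 2.3.3 and matplotlib 3.10.9 served for tables and figures.

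The 6 genes and the lists were chosen with earlier results of these data known. Named were the 6 genes, the measured H2B genes, from other lists any gene that passed and up to 3 with the smallest unadjusted p, and the 2 genes most correlated with each member. The others named, and those in the lists added once the annotation was seen, were chosen after their values were seen. The planned word-based lists were left out because the gene table has no description column. Alternatives were 3 other scalings, array weights, a replicate block, other eBayes settings, a filter at a mean of 5, 1 probe set per gene, other thresholds and leaving out each array. Averaging probe sets could change nothing, as each of the 6 genes had 1.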

Additional observations from a re-analysis of the deposited data

How the results depend on the processing

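AT2G37470 passed under all 15 alternatives (log2 difference -0.55 to -0.41). PRL kept its direction under all 15 and passed in 9. It did not pass with the replicate block (-0.33, adjusted p = 0.092), and on leaving out 1 array it lay between -0.39 and -0.27. AT3G53650 kept its direction and passed in 4. It did not pass under median-centring (-0.35), quantile normalization (-0.35), cyclic loess (-0.34), the replicate block (-0.36, adjusted p = 0.063), the eBayes trend (-0.36) or 1 probe set per gene (-0.36), and on leaving out 1 array it lay between -0.45 and -0.30. ICU2, AUR1 and AUR2 passed in none, and ICU2 changed sign with array weights (-0.01) and without 35S::KLU replicate 2 (-0.00). The replication list had 2 genes that fell under median-centring, quantile normalization and the filter on dim probe sets (PRL and TOPII), 0 with the replicate block and 0 to 1 on leaving out 1 array. The H2B list had 1 under the 3 scalings, the block, the trend and 1 probe set per gene, and 1 to 2 on leaving out 1 array. Over all probe sets 1893 passed, 2978 with array weights, 836 of 13355 with 1 probe set per gene, 789 at a threshold of 0.01, 1279 with the replicate block and 906 to 1962 on leaving out 1 array. The design text gives experiments in which the genotypes shared plates, but no label says which experiment a replicate number stands for. The block thus rests on the number. Deviations of same-numbered arrays from their genotype means correlated between -0.20 and 0.04. No 35S::KLU array correlated best with the WT array of its own number, and of the WT arrays only replicate 2 correlated best with its own number. SIM passed with array weights (adjusted p = 0.040), and PYK10 with array weights, with the block and without WT replicate 3 (adjusted p between 0.019 and 0.028). The number of arrays and the compression of dim signals limit what small differences can be seen. The cause of these changes was not tested.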
